A study of Solanum lycopersicum with 30 samples.

Results

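ETR2, EIN2, EIL2 and JERF1 are tomato genes of ethylene perception and signalling, and their transcripts were followed here in roots that met a patch of ammonium in field soil. A probe set belonged to the group when the probe annotation gave it 1 of these 4 symbols. The rule found 4 probe sets, 1 for each gene, of 10038 probe sets on the array once control probe sets were set aside. All 4 passed the filter on low signals and were tested among 7528 probe sets. No genome build is named for these values, so positions are not given.

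The study compared 2 genotypes of Solanum lycopersicum, the mutant labelled rmc and the wild type (WT), under 3 treatments of the soil. The name rmc is used in tomato research for a mutant with reduced mycorrhizal colonization. The roots came from a soil patch that had received water, a low or a high amount of ammonium (low N, high N). In rmc the labels give 6.5 ppm ammonium for low N and 65 ppm for high N, and in WT they give 10 µM and 100 µM. The labels thus state the doses of the 2 genotypes in different units, and whether they were the same amounts cannot be told from them. Plants of 8 weeks were set into farm soil and grown there for 5 more weeks, and roots were cut from the patch 24 h after the injection. Each of the 6 groups had 5 samples described as biological replicates, with 1 array each, 30 arrays in all. How many plants stand behind a sample, and whether plants of 1 plot gave several samples, is not given in the sources used here. Whole roots hold many cell types, so less RNA per cell and fewer cells that make it cannot be told apart.

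Ethylene is sensed by receptors in the membrane of the endoplasmic reticulum that hold the pathway off until the hormone binds them. ETR2 is one of the tomato receptors of this family. While the receptors are active they keep the kinase CTR1 at work, and CTR1 phosphorylates EIN2, a membrane protein through which the whole response has to pass. In Arabidopsis, EIN2 is cleaved once the phosphorylation is lost, and its end moves to the nucleus and raises the EIN3-like transcription factors, of which EIL2 is a tomato member. EIN3-like factors switch on genes of the ethylene response factor (ERF) family. JERF1, whose name stands for jasmonate and ethylene response factor, belongs to that family, whose members bind GCC-box motifs in target promoters. In roots, ethylene is known for its effects on elongation, root hairs and the entry of mycorrhizal fungi.

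The 4 genes had lower signals in high N roots than in water roots in both genotypes, and the differences were small. In rmc roots the test (limma, adjusted p under 0.05) was passed by EIL2 alone, with a log2 difference of -0.30, where 4.34% of all probe sets passed. In WT roots it was passed by ETR2 and EIN2, each with a log2 difference of -0.49, where 18.3% of all probe sets passed. Averaged over both genotypes, 3 of the 4 genes passed it, beside 34.1% of all probe sets, and JERF1 lay just outside. No gene of the 4 passed a test of the difference between the responses of rmc and WT, and none passed the test for low N against water. These directions hold for values scaled to one array mean, as deposited; when each array was instead scaled to its poly-A control RNAs, all 4 genes were higher at high N in rmc and on average over both genotypes.

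**Figure D1:**
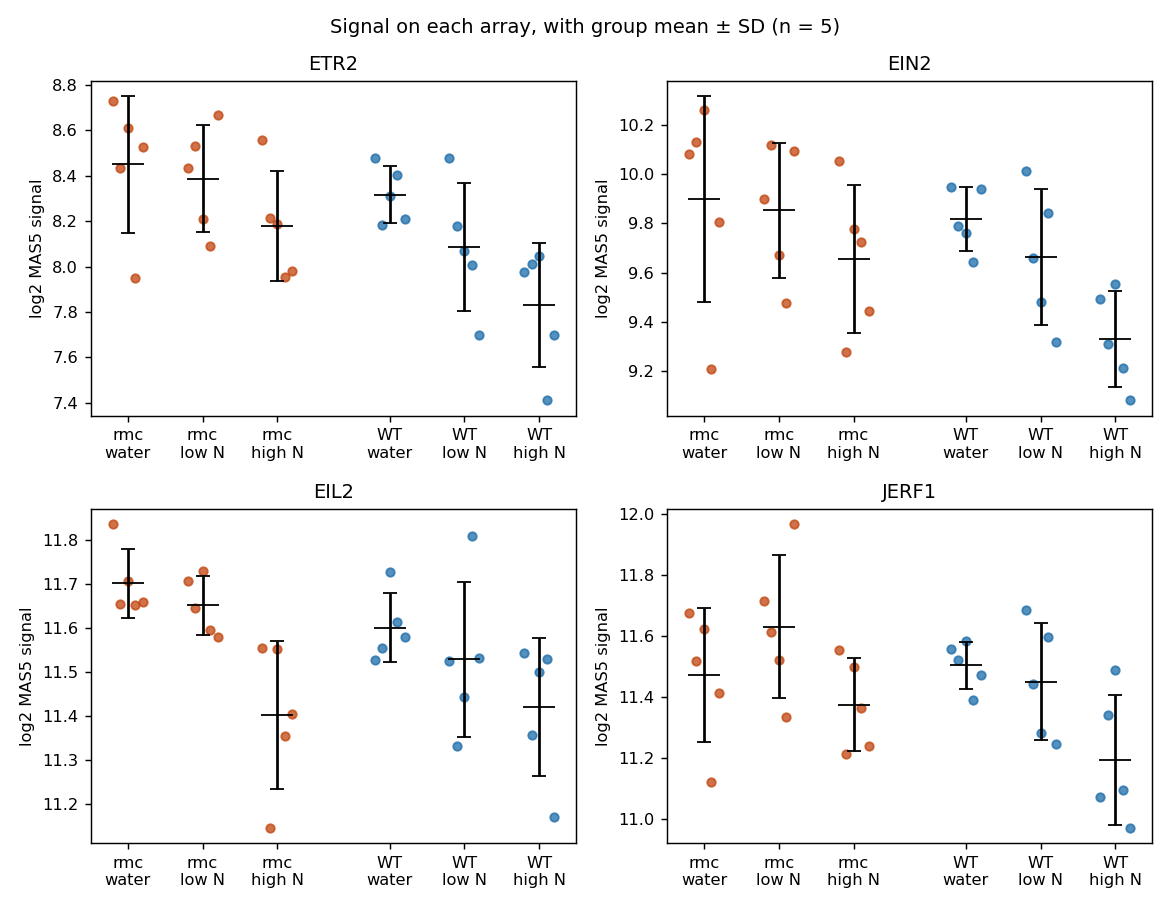
Log2 MAS5 signal of ETR2, EIN2, EIL2 and JERF1 (vertical axes, a scale for each gene) on every array, by genotype and treatment; points are arrays in order of replicate number, the long bar is the group mean and the whiskers are 1 SD (n = 5). The WT high N arrays of ETR2 and EIN2 lie below all WT water arrays, and the rmc high N arrays of EIL2 lie below all rmc water arrays.

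Some control readings also had different means at high N and in water, though none had an adjusted permutation p under 0.05. The mean log2 signal of 24 probe sets for the poly-A control RNAs, which are added before amplification, was 8.06 ± 0.57 at high N and 8.94 ± 0.24 in water in rmc, and 8.25 ± 0.20 at high N and 8.58 ± 0.12 in water in WT (SD, n = 5 each). The differences were -0.878 in rmc and -0.338 in WT, with the same two-sided exact permutation p of 0.0159 and an adjusted p of 0.0635 over 28 such tests. The gap between the 3′ and 5′ probe sets of GAPDH, a reading that depends on the RNA and on its amplification, was also lower on average at high N. It averaged -0.144 at high N and 0.224 in water in rmc, and -0.118 at high N and 0.206 in water in WT. Each of these had an exact permutation p of 0.00794, the smallest that 5 against 5 samples can give, and an adjusted p of 0.0556. The hybridization controls differed by -0.03 in rmc (exact permutation p = 0.627) and by -0.01 in WT (exact permutation p = 0.817). The part of these readings in the results below was not tested, except where values are given.

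Root transcripts were high on the arrays. The 4 root transcripts found on the array (PT1 and PT2, phosphate transporters; AMT1-2, an ammonium transporter; TIP, a tonoplast water channel) had mean log2 signals of 9.69 to 12.12. Their mean was 11.09 ± 0.15 at high N and 10.40 ± 0.49 in water in rmc (a difference of 0.687, exact permutation p = 0.0238, adjusted p = 0.0667), and 10.61 ± 0.16 at high N and 10.08 ± 0.10 in water in WT (a difference of 0.527, exact permutation p = 0.00794, adjusted p = 0.0556), opposite in sign to the 4 genes (SD, n = 5 each). In this mean a response of the transporter genes to ammonium and a change in root tissue cannot be told apart. Of 4 shoot photosynthesis transcripts, CAB4, CAB5 and CAB6A, which encode chlorophyll-binding proteins, had means of 4.46, 1.89 and 2.79, below the filter, while PSBR, a photosystem protein, had 10.10. The mean of these 4 differed between high N and water by -0.447 in rmc (exact permutation p = 0.0714) and by -0.340 in WT (exact permutation p = 0.262). The mean of 7 probe sets for root tips and dividing cells ranged from 8.67 to 9.63 at high N and 8.25 to 9.40 in water in rmc, and from 8.86 to 9.59 at high N and 8.61 to 9.01 in water in WT. Its difference was 0.236 in rmc (exact permutation p = 0.444, adjusted p = 0.566) and 0.374 in WT (exact permutation p = 0.0397, adjusted p = 0.101). CYP1, a cysteine protease gene taken as the senescence marker, had a difference of -0.338 in rmc (exact permutation p = 0.0635, adjusted p = 0.127) and -0.375 in WT (exact permutation p = 0.0159, adjusted p = 0.0635). Whether these readings have a part in the results was not tested.

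ETR2, the receptor, showed its clearest separation between high N and water in WT. In rmc its log2 signals were 8.73, 8.43, 8.61, 7.95 and 8.53 in water, 8.44, 8.53, 8.21, 8.09 and 8.67 at low N, and 8.56, 8.21, 8.19, 7.95 and 7.98 at high N. In WT they were 8.48, 8.18, 8.31, 8.40 and 8.21 in water, 8.48, 8.18, 8.07, 8.01 and 7.70 at low N, and 7.98, 8.01, 8.05, 7.41 and 7.70 at high N. The rmc groups overlapped at all 3 treatments, with 1 water array, replicate 4, as low as the lowest high N array. The WT groups separated between high N and water, where all 5 high N arrays lay under the lowest water array.

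The means of ETR2 ran downward from water to low N to high N in both genotypes, each step smaller than the larger SD of the groups it joins. Low N was not called against water in either genotype. The means were 8.45 ± 0.30, 8.39 ± 0.24 and 8.18 ± 0.24 in rmc for water, low N and high N, and 8.32 ± 0.13, 8.09 ± 0.28 and 7.83 ± 0.27 in WT (SD, n = 5 each). By limma, high N differed from water by -0.27 in rmc (95% interval -0.59 to 0.05, adjusted p = 0.301), which did not pass the threshold of 0.05. In WT the difference was -0.49 (SE 0.16, interval -0.81 to -0.17, adjusted p = 0.0342), a fold of 0.714. Averaged over both genotypes ETR2 fell by 0.38 on the log2 scale (SE 0.11, adjusted p = 0.0107). That averaged call held in 20 of 20 fits that left out 1 array. The call in WT held in 5 of 10, and was lost without water replicate 1, 3 or 4 or high N replicate 4 or 5, with adjusted p up to 0.0985.

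EIN2, the membrane protein that carries the signal onward, showed a similar pattern. In rmc its log2 signals were 10.08, 10.13, 10.26, 9.21 and 9.81 in water, 9.90, 10.12, 9.67, 9.48 and 10.09 at low N, and 10.05, 9.28, 9.78, 9.73 and 9.44 at high N. In WT they were 9.95, 9.79, 9.76, 9.64 and 9.94 in water, 10.01, 9.66, 9.48, 9.84 and 9.32 at low N, and 9.49, 9.31, 9.55, 9.21 and 9.08 at high N. In rmc the 5 high N arrays lay within the range of the water arrays, since water replicate 4 had the lowest reading of all 15 rmc arrays. In WT all 5 high N arrays lay below all 5 water arrays while the low N arrays overlapped both.

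The EIN2 means for water, low N and high N were 9.90 ± 0.42, 9.85 ± 0.28 and 9.65 ± 0.30 in rmc, and 9.82 ± 0.13, 9.66 ± 0.28 and 9.33 ± 0.20 in WT (SD, n = 5 each). High N differed from water by -0.24 in rmc (95% interval -0.60 to 0.11, limma adjusted p = 0.413). In WT it differed by -0.49 (SE 0.17, interval -0.84 to -0.13, limma adjusted p = 0.0495), a fold of 0.713 that passed the threshold narrowly. Averaged over both genotypes EIN2 fell by 0.37 on the log2 scale (SE 0.12, limma adjusted p = 0.0240). The WT call was kept in 1 of 10 fits without 1 array, the one without high N replicate 3, and over all 10 the difference stayed between -0.54 and -0.43 with adjusted p of 0.0369 to 0.138. The averaged call was kept in 17 of 20, and was lost without WT high N replicate 5, rmc water replicate 3 or rmc high N replicate 2, with adjusted p up to 0.0552.

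EIL2, the EIN3-like transcription factor, had the tightest readings of the 4 genes. In rmc its log2 signals were 11.84, 11.65, 11.71, 11.65 and 11.66 in water, 11.71, 11.65, 11.73, 11.60 and 11.58 at low N, and 11.55, 11.15, 11.55, 11.36 and 11.41 at high N. In WT they were 11.53, 11.56, 11.73, 11.61 and 11.58 in water, 11.53, 11.33, 11.45, 11.81 and 11.53 at low N, and 11.54, 11.36, 11.50, 11.53 and 11.17 at high N. In rmc all 5 high N arrays lay below every water array and every low N array. In WT 3 of 5 high N arrays did so against water, and the groups overlapped.

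The EIL2 means for water, low N and high N were 11.70 ± 0.08, 11.65 ± 0.07 and 11.40 ± 0.17 in rmc, and 11.60 ± 0.08, 11.53 ± 0.18 and 11.42 ± 0.16 in WT (SD, n = 5 each). In rmc EIL2 fell by 0.30 on the log2 scale at high N against water (SE 0.08, 95% interval -0.47 to -0.13, limma adjusted p = 0.0345), a fold of 0.813. In WT the difference was -0.18 (interval -0.35 to -0.01, limma adjusted p = 0.112). Averaged over both genotypes it fell by 0.24 (SE 0.06, limma adjusted p = 0.00311), and this call held in 20 of 20 fits without 1 array. The rmc call held in 3 of 10 and was lost without water replicate 1, 2, 3 or 5 or high N replicate 2, 4 or 5, with adjusted p up to 0.134. It was also lost when only the rmc high N and water arrays were fitted (adjusted p = 0.210).

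JERF1, the ERF family member, alone among the 4 genes had no call for high N against water. In rmc its log2 signals were 11.67, 11.52, 11.62, 11.12 and 11.41 in water, 11.71, 11.61, 11.52, 11.33 and 11.97 at low N, and 11.55, 11.21, 11.50, 11.36 and 11.24 at high N. In WT they were 11.56, 11.52, 11.58, 11.39 and 11.47 in water, 11.68, 11.44, 11.28, 11.60 and 11.25 at low N, and 11.07, 11.34, 11.49, 11.09 and 10.97 at high N. In rmc none of the high N arrays lay below all the water arrays, while in WT 4 of 5 did. The single highest JERF1 reading came from rmc low N replicate 5.

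The JERF1 means for water, low N and high N were 11.47 ± 0.22, 11.63 ± 0.24 and 11.37 ± 0.15 in rmc, and 11.50 ± 0.08, 11.45 ± 0.19 and 11.19 ± 0.21 in WT (SD, n = 5 each). JERF1 in rmc was thus the only one of the 8 gene and genotype series here whose means did not step down from water to low N to high N, though the differences at low N were within the spread. High N differed from water by -0.10 in rmc (95% interval -0.34 to 0.14, limma adjusted p = 0.650) and by -0.31 in WT (interval -0.55 to -0.07, limma adjusted p = 0.0599). Over both genotypes the difference was -0.20 (SE 0.08, limma adjusted p = 0.0564). The 3 JERF1 values missed the threshold, the WT and averaged ones narrowly. Fits without WT high N replicate 3 put both past it, with adjusted p of 0.0242 in WT and 0.0236 averaged, and the averaged one was also called without WT high N replicate 2 or rmc water replicate 4 or rmc high N replicate 1 or 3.

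These counts stand against a broad response of the roots. Counting lower probe sets only, 1.06% of all those tested were called in rmc, where 1 of the 4 genes was, and 9.59% in WT, where 2 of 4 were. Averaged over both genotypes it was 18%, beside 3 of 4. Arrays of high N lay wholly below those of water for 1 of 4 genes in rmc and 2 of 4 in WT, beside 1.05% and 8.42% of all probe sets. In size the WT differences of ETR2 and EIN2 were not extreme, with 9.33% and 9.19% of probe sets having a lower value. The median over the 4 genes in the averaged comparison was -0.30, against -0.01 over all probe sets. The 4 genes were chosen with earlier results of these data known, so these counts and medians are a description only. Whether they differ from the values of all probe sets was not tested.

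**Figure D2:**
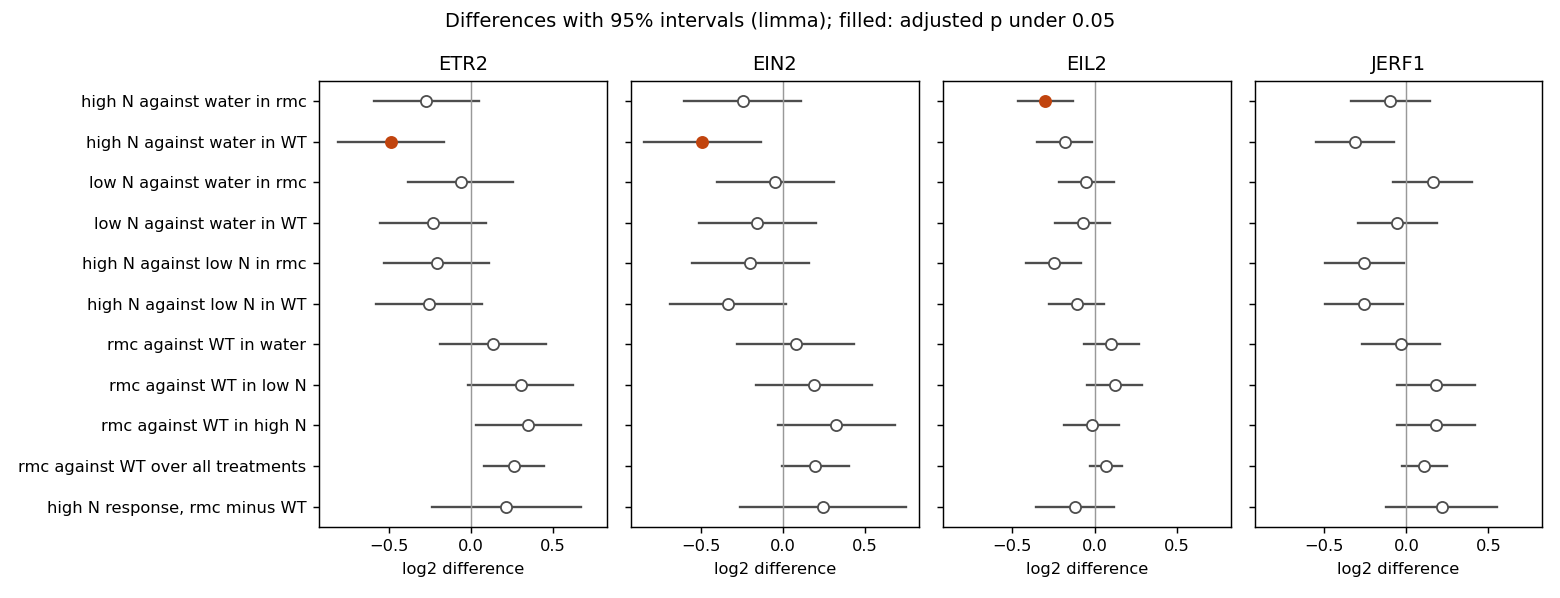
Log2 differences (horizontal axes) of ETR2, EIN2, EIL2 and JERF1 for 11 comparisons, with 95% intervals from limma over all 30 arrays; filled points have an adjusted p under 0.05. The filled points are EIL2 for high N against water in rmc (-0.30) and ETR2 and EIN2 for high N against water in WT (-0.49 each); the direction against water turned in rmc under scaling to the poly-A controls.

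Low N gave no called difference from water for any of the 4 genes, in a comparison that called almost nothing on the whole array (0.0133% of probe sets in rmc, 0.0266% in WT and 0.0531% over both). In rmc the differences were -0.06 for ETR2, -0.05 for EIN2, -0.05 for EIL2 and 0.16 for JERF1, with limma adjusted p of 0.996 or more. Without rmc water replicate 4 they were -0.19 for ETR2, -0.22 for EIN2, -0.06 for EIL2 and 0.07 for JERF1, again with no call. In WT they were -0.23 for ETR2, -0.16 for EIN2, -0.07 for EIL2 and -0.05 for JERF1, with limma adjusted p of 0.759 or more. The interval for ETR2 in WT ran from -0.55 to 0.09, so a fall as large as the one at high N was not outside it.

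Set directly against low N, high N gave calls for EIL2 and JERF1 when both genotypes were averaged, as deposited, but both differences turned positive (0.19 and 0.12) under scaling to the poly-A controls. EIL2 fell by 0.18 (SE 0.06, limma adjusted p = 0.0479) and JERF1 fell by 0.26 (SE 0.08, limma adjusted p = 0.0477) on the log2 scale. ETR2 had -0.23 (limma adjusted p = 0.149) and EIN2 had -0.27 (limma adjusted p = 0.138). The count of 2 of 4 stood beside 9.71% of all probe sets, 3.69% lower. Both calls ended with no filter, with median centring, with no intensity trend and with only the groups compared, and each was kept in 7 of 20 fits without 1 array, with adjusted p up to 0.112 for EIL2 and 0.104 for JERF1. Within a genotype none of the 4 was called, beside 0.704% of probe sets in rmc and 0% in WT. The nearest was EIL2 in rmc at -0.25 (limma adjusted p = 0.0906), where its 5 high N arrays lay below all 5 low N arrays, as did 0.505% of all probe sets. The differences against water and those against low N share the high N arrays.

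Between the genotypes, ETR2 came closest to a difference. Averaged over the 3 treatments it was 0.26 higher in rmc than in WT on the log2 scale (SE 0.09, 95% interval 0.08 to 0.45, limma adjusted p = 0.0551), just short of the threshold. EIN2 had 0.20 (interval -0.01 to 0.40, limma adjusted p = 0.199), JERF1 0.11 (interval -0.03 to 0.25, limma adjusted p = 0.301) and EIL2 0.07 (interval -0.03 to 0.17, limma adjusted p = 0.355). None of the 4 was called, beside 12.3% of all probe sets. The 4 differences were positive as deposited, while those of EIL2 and JERF1 turned to -0.06 and -0.02 under scaling to the poly-A controls. ETR2 was 0.13, 0.30 and 0.35 higher in rmc in water, low N and high N, with limma adjusted p of 0.330 or more. Of the 4 genes none was called at a single treatment, beside 0.478%, 1.95% and 1.09% of probe sets.

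Replicate 4 of rmc in water bears on that comparison. It had the lowest reading of its group for ETR2 (7.95, the others 8.43 to 8.73), for EIN2 (9.21, the others 9.81 to 10.26) and for JERF1 (11.12, the others 11.41 to 11.67). Its EIL2 reading was 11.65, with the rest of its group. Its distance from the next array was 0.618, 0.568 and 0.530 of the group's range for ETR2, EIN2 and JERF1, under the critical value of 0.71 of Dixon's test for 5 values. Without this array ETR2 was 0.30 higher in rmc (limma adjusted p = 0.0154) and EIN2 0.26 higher (limma adjusted p = 0.0468), so both passed. ETR2 passed in 7 of 30 fits without 1 array and EIN2 in this one alone. For high N against water in rmc, its omission gave -0.40 for ETR2 (limma adjusted p = 0.0842) and -0.42 for EIN2 (limma adjusted p = 0.0817).

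The test of the difference between the high N responses gave no call for the 4 genes, beside 0.0133% of all probe sets. The response of rmc minus that of WT was 0.22 for ETR2 (95% interval -0.24 to 0.67), 0.25 for EIN2 (interval -0.26 to 0.75), -0.12 for EIL2 (interval -0.35 to 0.12) and 0.21 for JERF1 (interval -0.12 to 0.55), with a limma adjusted p of 0.999 for each. Without rmc water replicate 4 these values were 0.09 for ETR2, 0.07 for EIN2, -0.13 for EIL2 and 0.13 for JERF1. The calls of ETR2 and EIN2 in WT and of EIL2 in rmc thus came without a tested difference between the genotypes. For low N the same test gave limma adjusted p of 0.928 or more for the 4 genes, with 0% of all probe sets called.

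Ranked over the 6 groups, ETR2 and EIN2 had their highest mean in rmc in water and their lowest in WT at high N. EIL2 was highest in rmc in water and lowest in rmc at high N, and JERF1 was highest in rmc at low N and lowest in WT at high N. Neighbours in these orders were separated by less than the larger of their 2 SDs, with 1 exception, EIN2 in rmc at high N above WT at high N (a gap of 0.326 against an SD of 0.302). The within-group SD was 0.25 for ETR2, 0.28 for EIN2, 0.13 for EIL2 and 0.19 for JERF1, and the median over all tested probe sets was 0.23. EIL2 was among the steadier transcripts, with 13.4% of probe sets having a smaller SD, against 56% for ETR2, 63.1% for EIN2 and 36% for JERF1.

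ETR2, EIN2 and JERF1 also moved together from array to array inside the groups. With each group's mean subtracted, the 30 arrays gave a Pearson r of 0.843 and a Spearman rho of 0.829 between EIN2 and JERF1. The permutation p for r was 1e-05, the smallest that 100000 permutations can give, and 6e-05 after adjustment over 6 pairs. ETR2 and EIN2 had r of 0.751 and rho of 0.725, and ETR2 and JERF1 had r of 0.751 and rho of 0.729, each with an adjusted permutation p of 0.0002. A further r left out the 2 arrays whose signal for the first gene lay farthest from the median of all 30 arrays. They were chosen before the group means were subtracted. This r was 0.794, 0.775 and 0.753 for these 3 pairs. With ETR2 as the first gene they were WT high N replicate 4 (7.41) and rmc water replicate 1 (8.73). In those pairs rmc water replicate 4 thus stayed in. Differences between the means of the treatments and genotypes do not enter the r values, because the group means were removed.

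The pairs with EIL2 had lower values and missed the threshold; whether they differ from the other pairs was not tested. Its r was 0.398 with EIN2 (rho 0.369, adjusted permutation p = 0.0593), 0.384 with JERF1 (rho 0.375, adjusted permutation p = 0.0646) and 0.0919 with ETR2 (rho 0.131, adjusted permutation p = 0.680). The 2 values of a pair come from the same array and share its RNA, its amplification and its scale. Of all tested probe sets, 99.5% had a lower r to ETR2 than EIN2 had, 99.5% a lower r to ETR2 than JERF1 had, and 98.5% a lower r to EIN2 than JERF1 had. For the pairs with EIL2, 52.6% had a lower r to ETR2 than EIL2 had, 69.5% a lower r to EIN2 than EIL2 had, and 76.9% a lower r to EIL2 than JERF1 had. After quantile normalization 5 of the 6 pairs passed, against 3 as deposited.

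**Figure D3:**
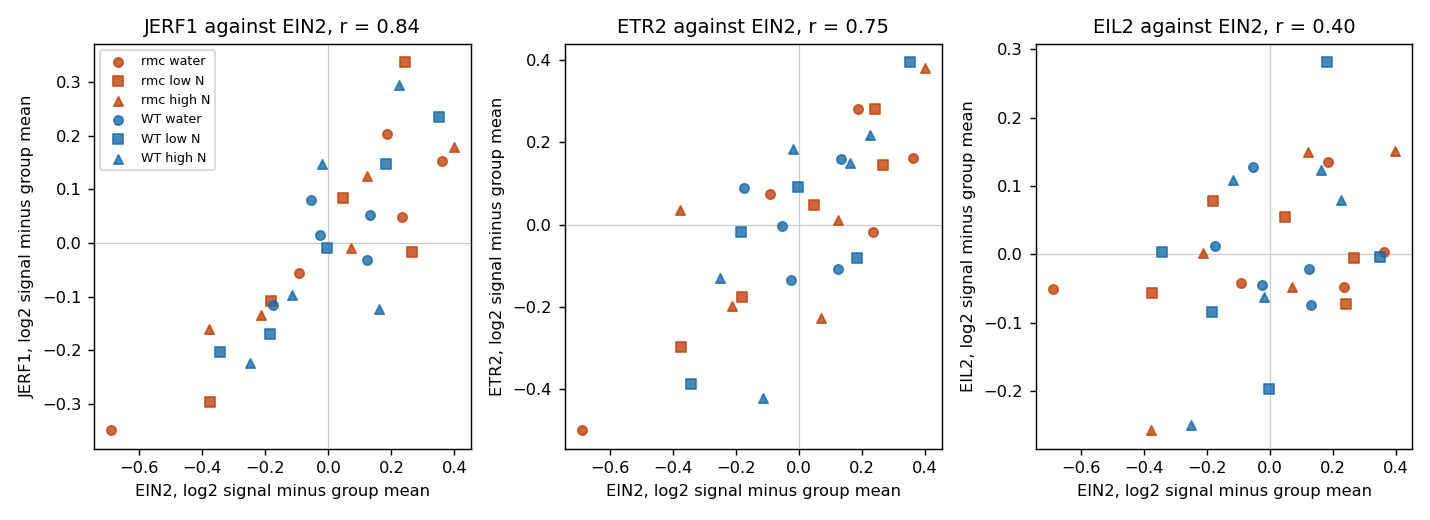
Log2 signal minus group mean on each of 30 arrays, JERF1, ETR2 and EIL2 (vertical axes) against EIN2 (horizontal axis); colour gives the genotype and shape the treatment. The r with EIN2 is 0.84 for JERF1, 0.75 for ETR2 and 0.40 for EIL2. In the JERF1 and ETR2 plots rmc water replicate 4 is the point at the lower left. In the EIL2 plot it lies farthest left, with EIL2 near its group mean.

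The same deviations were set against the control readings, after the data had been seen. The 3′ to 5′ gap of GAPDH had r of 0.641 with JERF1 (rho 0.664, adjusted permutation p = 0.00152), 0.583 with ETR2 (rho 0.544, adjusted permutation p = 0.00616) and 0.540 with EIN2 (rho 0.496, adjusted permutation p = 0.0101) within groups, over 30 arrays. For EIL2 it was 0.428 (adjusted permutation p = 0.0640). The poly-A controls had r of 0.0671 to 0.470 with the 4 genes, and none passed (adjusted permutation p of 0.0640 or more, over 8 tests). Of all tested probe sets, 95.2% had a lower r to the GAPDH gap than JERF1, 90.8% than ETR2, 87.4% than EIN2 and 78.6% than EIL2. This gap was lower at high N than in water.

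Transcripts with the most similar mean profile over the 6 groups were sought among 689 other probe sets with 1 gene symbol, by the root mean square (RMS) of the difference between centred group means. For ETR2 the nearest were ARF3, an auxin response factor gene (RMS 0.0357 on the log2 scale), Psy1, a phytoene synthase gene (0.0413), and EIN2 itself (0.0414), where the median of all was 0.256. For EIN2 they were DXS (0.0253), COI1, the jasmonate receptor gene (0.0261), and ARF3 (0.0306), with a median of 0.243. For EIL2 they were APS-AA2 (0.0377), FTB (0.0406) and Fad7, a fatty acid desaturase gene (0.0445), with a median of 0.196. For JERF1 they were INFA (0.0248), CIP4 (0.0332) and Rab1C, a small GTPase gene (0.0434), with a median of 0.208. ETR2 and EIN2 thus lay near each other and shared ARF3, a likeness over 6 means only.

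The other receptors, regulators and EIN3-like factors on the array were read beside the 4 genes. Of 15 further probe sets (13 genes), 14 were tested. For high N against water none was called in rmc, with a median difference of -0.04. In WT 0 were higher and 2 lower, beside 9.59% of all probe sets called lower, and the median was -0.18. The medians over all probe sets were -0.01 in rmc and -0.02 in WT. The 2 called in WT were EIL1, an EIN3-like factor, at -0.37 (limma adjusted p = 0.0153; -0.24 in rmc, adjusted p = 0.136), and TCTR2, a CTR1-like kinase gene named after its values were seen, at -0.31 (limma adjusted p = 0.0283; -0.16 in rmc, adjusted p = 0.318). EIL1 and TCTR2 were also higher in rmc than in WT over all treatments, by 0.19 (limma adjusted p = 0.0231) and 0.16 (limma adjusted p = 0.0457). They were the 2 of 14 called in that comparison, a share close to the 12.3% of all probe sets.

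Members of that list ran in both directions. EIL3, an EIN3-like factor, had -0.25 in rmc (limma adjusted p = 0.431) and -0.43 in WT (limma adjusted p = 0.0956). EIL4, of the same family, had -0.04 in rmc (limma adjusted p = 0.884) and -0.37 in WT (limma adjusted p = 0.0736). The receptor gene ETR1 had -0.03 in rmc (limma adjusted p = 0.881) and -0.26 in WT (limma adjusted p = 0.0550). The receptor gene ETR3, listed as LOC544279, had -0.23 in rmc (limma adjusted p = 0.333) and -0.25 in WT (limma adjusted p = 0.209). MPK3, a stress-activated kinase gene, had 0.17 in rmc (limma adjusted p = 0.860) and 0.74 in WT (limma adjusted p = 0.254) by its brighter probe set. The receptor genes ETR4, ETR5 and ETR6, named after their values were seen, had positive differences in rmc of 1.41, 0.40 and 1.33 (limma adjusted p = 0.118, 0.122 and 0.209), opposite in sign to ETR2. In WT the same genes had 0.15, -0.07 and -0.07. Over both genotypes 3 of the 14 were called lower, EIL1 at -0.31, EIL3 at -0.34 and TCTR2 at -0.23, a share close to the 18% of all probe sets.

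**Figure D4:**
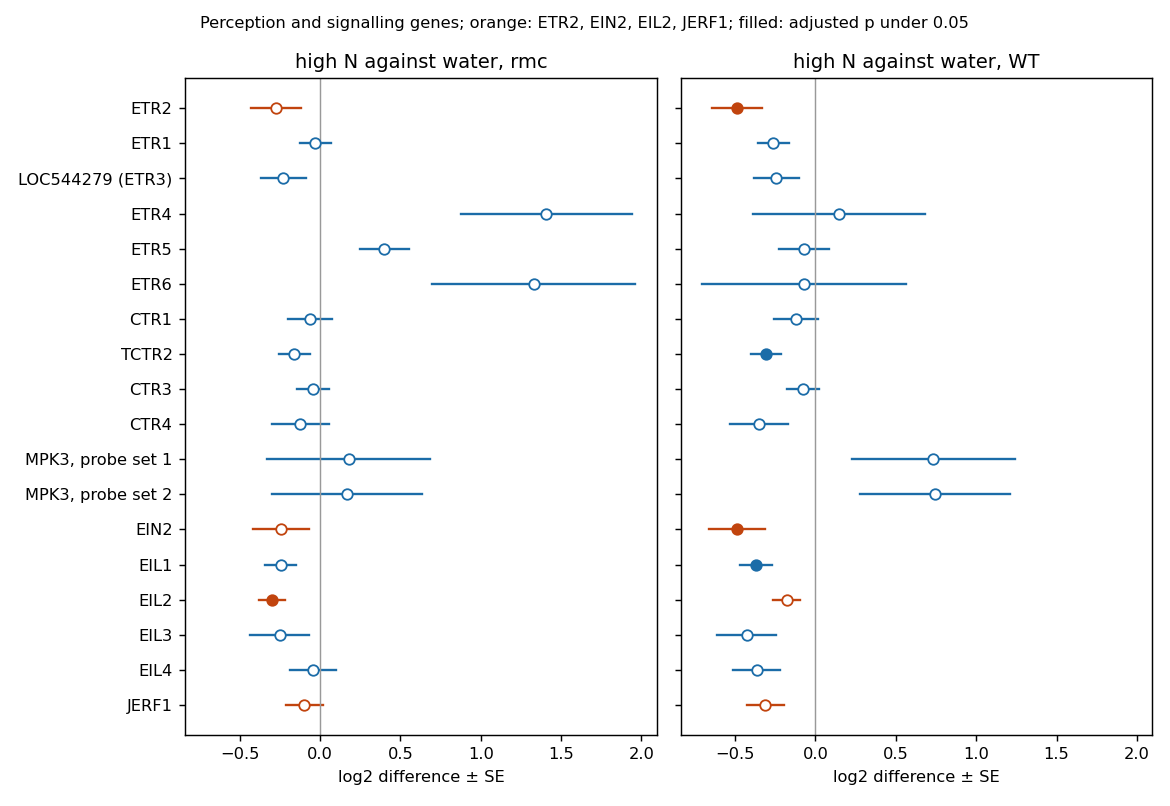
Log2 differences ± SE between high N and water (horizontal axes) for ETR2, EIN2, EIL2 and JERF1 (orange) and other perception and signalling genes (blue), in rmc (left) and WT (right); filled points have an adjusted p under 0.05. In WT, EIL1 (-0.37) and TCTR2 (-0.31) are filled beside ETR2 and EIN2, and in rmc EIL2 is the one filled point; under scaling to the poly-A controls the rmc values of the 4 genes turned positive.

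For high N against water the lists of other ERF genes and ethylene-responsive transcripts held no calls, while the ethylene synthesis list held some. None of the 10 tested probe sets of ERF family genes other than JERF1 was called for high N against water in either genotype. Of all probe sets, 4.34% were called in rmc and 18.3% in WT. The median of the ERF probe sets was 0.17 in rmc and -0.10 in WT. Their brightest members, ERF3 and JERF3, had -0.07 and 0.06 in rmc and -0.02 and -0.11 in WT. None of 6 tested probe sets for ethylene-responsive transcripts was called, beside the same shares of all probe sets. GluB, a glucanase gene, had 0.29 in rmc and -0.09 in WT, and CHI9, a chitinase gene, had 0.56 in rmc and 0.33 in WT. Whether the counts of these short lists differ from the shares of all probe sets was not tested. In ethylene synthesis, 0 of 9 tested probe sets were called lower in rmc, beside 1.06% of all probe sets, and 2 in WT, beside 9.59%. Both belong to 1 gene, ACO6, a gene for ACC oxidase, which makes the hormone in the last step of its synthesis. They had -1.18 (limma adjusted p = 0.0360) and -1.66 (limma adjusted p = 0.0371) in WT, against -0.73 and -1.09 in rmc (limma adjusted p = 0.256 and 0.234). Averaged over both genotypes, 4 of the 9 were called lower, beside 18% of all probe sets. They were ACO6 at -0.96, -1.37 and -1.19 by its probe sets, and SAM1 at -0.12. Over all treatments, 3 of the 9 were called for rmc against WT, each of them higher in rmc. The share of all probe sets called there was 12.3%, counting both directions. The ACO6 probe sets read 1 gene, so they do not count as separate genes.

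The sign in rmc depended on how the arrays were scaled. Dividing by the poly-A controls moves every probe set up at high N by the differences of those controls given above. In rmc this left 0.61 for ETR2, 0.64 for EIN2, 0.58 for EIL2 and 0.78 for JERF1. All 4 were called, beside 6411 of all 7528 probe sets, so the calls are not particular to these genes. Over both genotypes EIL2 and JERF1 were then called as higher, at 0.37 and 0.40, beside 5856 of 7528 probe sets called in either direction. In WT the scaling left -0.15 for ETR2, -0.15 for EIN2, 0.16 for EIL2 and 0.03 for JERF1. None of these was called, beside 9 of 7528 probe sets. Relative to the shift of all probe sets the differences are those of the deposited values. Under the other settings tried the 4 genes kept a negative sign for high N against water in both genotypes, and the calls near the threshold moved.

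**Figure D5:**
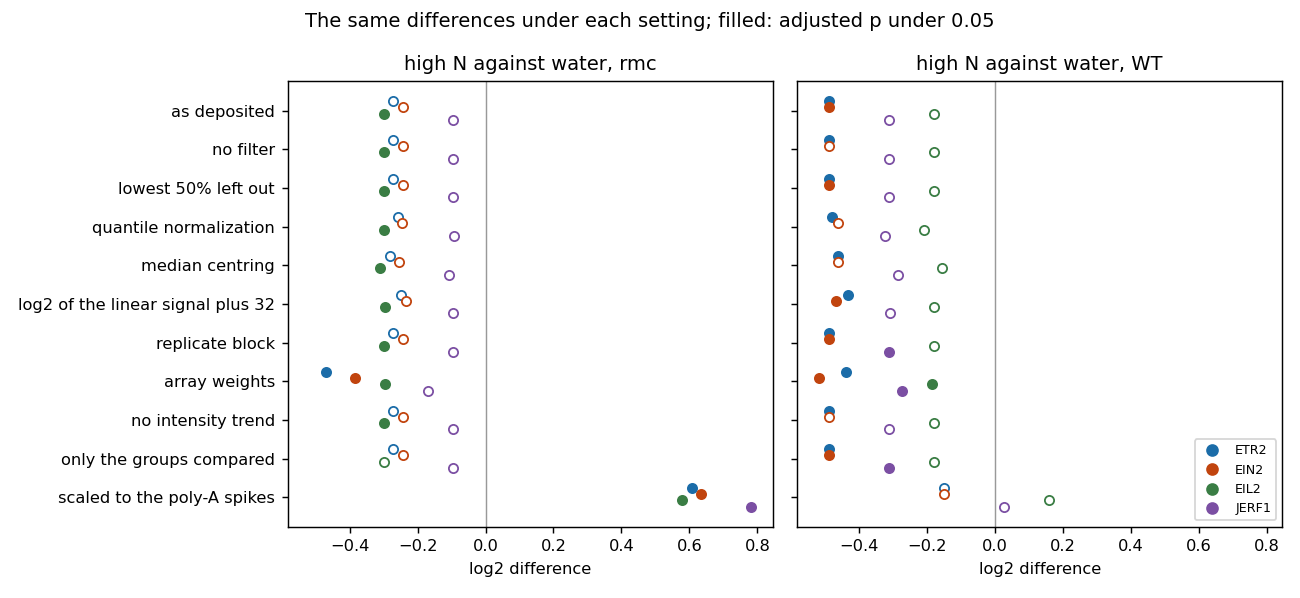
Log2 differences between high N and water (horizontal axes) for the 4 genes under each setting (rows), in rmc (left) and WT (right); filled points have an adjusted p under 0.05. Differences stay below 0 in every setting except scaling to the poly-A controls, which puts all 4 genes between 0.58 and 0.78 in rmc and EIL2 and JERF1 above 0 in WT.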

How the data were processed

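Per the submitters' processing notes, the authors used MAS5 and Affymetrix Expression Console; their versions are not stated. The deposited values are log2 signals of 10209 probe sets, whose linear trimmed mean (2% at each end) is 500 on every array, so a change common to all transcripts cannot be seen. Between 2.42% and 3.37% of probe sets stand at 0 on an array, and the number of arrays limits precision. Per the labels, 200 ng of RNA was amplified for each array; detection calls and scan dates were not used here. From these values, 108 probe sets for array controls and 63 for reporters were set aside, then the lowest 25% by mean log2 signal (under 5.612), leaving 7528. Gene symbols come from the platform annotation, which can be old (909 probe sets with 1 symbol, 885 found in RefSeq).

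Differences were fitted with limma 3.58.1 in R 4.3.3 (6 group means, 30 arrays, eBayes with an intensity trend). P values are two-sided, adjusted within each comparison by Benjamini-Hochberg (7528 tests) and called under 0.05; they measure the spread between these samples. Control readings were compared by exact permutation tests adjusted over 28 tests. Correlations used 100000 permutations. Python 3.11.15, pandas 2.3.3, scipy 1.17.1 and matplotlib 3.10.9 served for tables, permutations and figures. The fit was tested on simulated data. The genes, lists and tests were chosen with earlier results of these data known. All 4 genes are named in each comparison, together with the 3 nearest profiles. Of each list that the text uses, the called genes and up to 6 of the brightest genes are named, except for ethylene synthesis. There the genes named are those called for high N against water. Deviations of same-numbered arrays correlated from -0.615 to 0.653 over 75 pairs, so the numbers were not taken to pair the samples. Other settings were tried for scale, filter, offset, trend, weights, replicate block, arrays in the fit and each array left out.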

Additional observations from a re-analysis of the deposited data

How the results depend on the processing

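Of 60 differences of the 4 genes, 8 were called. Over 1476 refits of them, 1371 kept the side of the threshold (and the direction, where called), 65 lost a call, 30 gained one and 10 reversed, and 51 uncalled differences changed sign. All 10 reversals came with scaling to the poly-A controls, by the construction given in the text. It gave 0.61 for ETR2, 0.64 for EIN2, 0.58 for EIL2 and 0.78 for JERF1 for high N against water in rmc, with 4 genes called. Over both genotypes it gave 0.23, 0.24, 0.37 and 0.40 for the same genes. Of them 2, EIL2 (limma adjusted p = 0.0122) and JERF1 (limma adjusted p = 0.0145), were then called as higher. Of all 7528 probe sets, 6411 were called under this scaling in rmc and 5856 over both genotypes. The same scaling gave, for high N against low N over both, 0.19 for EIL2 and 0.12 for JERF1, and 0 genes were called. It called 0 genes for high N against water in WT.

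For high N against water in WT, with 2 genes called, no filter, quantile normalization, median centring and no intensity trend each called 1 gene (ETR2), and array weights called 4. In rmc, with 1 called, array weights called 3 genes, and the fit of only the groups compared called 0. For high N against low N over both genotypes, with 2 called, no filter, median centring, no intensity trend and only the groups compared each called 0; in rmc array weights called 1. For rmc against WT over all treatments, with 0 called, quantile normalization called 1 and array weights 2. The 3 gene pairs correlated within groups became 5 under quantile normalization and 6 under scaling to the poly-A controls, where all genes share the subtracted reading. Leaving out 1 array gave 0 to 3 genes for high N against water in WT, 0 to 1 in rmc, 0 to 1 for high N against low N in rmc, 0 to 2 over both genotypes, 0 to 2 for rmc against WT, and 3 to 5 pairs. Apart from these alternatives, the cause of a lost or gained call was not tested.

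Replicate numbers were shared across groups, but only 6 of 30 arrays correlated best with an array of their own number. The median correlation was 0.111 for same-numbered and -0.0224 for other arrays. The block raised calls over all probe sets for high N against water to 1757 in WT, against 1374 without it, and for high N against low N in rmc to 213, against 53. With the replicate block, JERF1 was called for high N against water in WT (adjusted p = 0.0470) and over both genotypes (limma adjusted p = 0.0461), and 1 gene, ETR2, for rmc against WT (limma adjusted p = 0.0166).

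Calls over all probe sets moved too. For high N against water in WT there were 1374, against 9 with poly-A scaling, 2757 with array weights and 467 to 1681 without 1 array. In rmc there were 327, against 6411 with poly-A scaling, 613 with the replicate block, 1723 with array weights, 4 with only the groups compared and 52 to 1028 without 1 array. Over both there were 2566, against 5856 with poly-A scaling. For rmc against WT there were 928, against 143 with poly-A scaling and 2151 with array weights. The mean of a gene's probe sets was not run, as each gene has 1.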
